A study of Mus musculus with 20 samples.

Results

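Bulk RNA-seq of cardiomyocytes (CMs) was compared between *Gadlor*-KO and WT mice after pressure overload. The comparison holds 6 samples of the 20 in the series, 3 labelled *Gadlor*-KO CM (KO 1, KO 2 and KO 3) and 3 labelled WT CM (WT 1, WT 2 and WT 6), chosen by cell type and genotype in the sample labels. The other samples are 8 of endothelial cells (ECs) and 6 of fibroblasts (FBs). All mice, WT included, had undergone transverse aortic constriction (TAC), a surgical narrowing of the aorta, 2 weeks earlier and at 8 to 10 weeks of age. No sham-operated CM sample was analysed here. The *Gadlor*-KO mice carry a homozygous, systemic deletion on chromosome 16, present in every cell type, that removes the long non-coding RNAs *Gadlor1* and *Gadlor2*. The line goes back to 1 embryonic stem cell clone. CMs were obtained by Langendorff perfusion, in which enzyme solution is passed through the coronary vessels, and were then allowed to settle. The methods speak of biological replicates for the experiments in general, but neither they nor the labels say which animal each of these samples came from, and any p-value here therefore reflects the spread between these samples, which may in part be technical. Reads of *Gadlor1* and *Gadlor2* were not used here, so the genotype labels remain unchecked against the deletion.

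CMs are the contractile cells of the heart. Their sarcomeres shorten when calcium, let in by L-type channels and released from the sarcoplasmic reticulum by the ryanodine receptor, binds to troponin, and they relax when the SERCA pump returns calcium to its store. The energy comes mainly from mitochondrial oxidation of fatty acids, and under pressure overload CMs are known to enlarge and to switch on natriuretic peptide genes. ECs, FBs, mural cells and macrophages lie between them, and RNA of these cells can enter a CM preparation.

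The markers of CMs did not bear out the label of the *Gadlor*-KO samples. The summary level of a marker list is given here as the mean log2 CPM of its genes (CPM, read counts scaled to the size of the library, on the deposited log2 scale). Over 17 CM marker genes it was 5.76 in KO 1, 5.12 in KO 2 and 8.36 in KO 3, against 10.83 in WT 1, 10.58 in WT 2 and 10.63 in WT 6. The same list lay between 3.58 and 5.50 in the 8 EC samples, whose table was normalized separately, so that KO 2 lay within the EC range and KO 1 slightly above it. Endothelial markers lay at 5.82, 7.04 and 6.76 in KO 1, KO 2 and KO 3, against 3.65, 4.49 and 3.33 in WT 1, WT 2 and WT 6. Fibroblast markers lay at 5.92, 6.98 and 6.67 in the *Gadlor*-KO samples, against 2.47, 3.21 and 2.36 in the WT samples, and macrophage markers at 5.49, 4.12 and 4.22 against -0.09, 1.34 and 0.41. In each of these classes the means of the *Gadlor*-KO and the WT samples did not overlap. The summed CPM of the lists was 1400, 849 and 8712 for CM markers in the *Gadlor*-KO samples, against 48133, 39664 and 61056 in the WT samples, and 1418, 500.3 and 554 for macrophage markers, against 273, 303 and 576, so that the macrophage sums overlapped. Pericyte and smooth muscle markers overlapped in their means as well, with 3.31, 5.37 and 5.39 in *Gadlor*-KO against 3.27, 3.88 and 3.31 in WT samples.

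**Figure D1:**
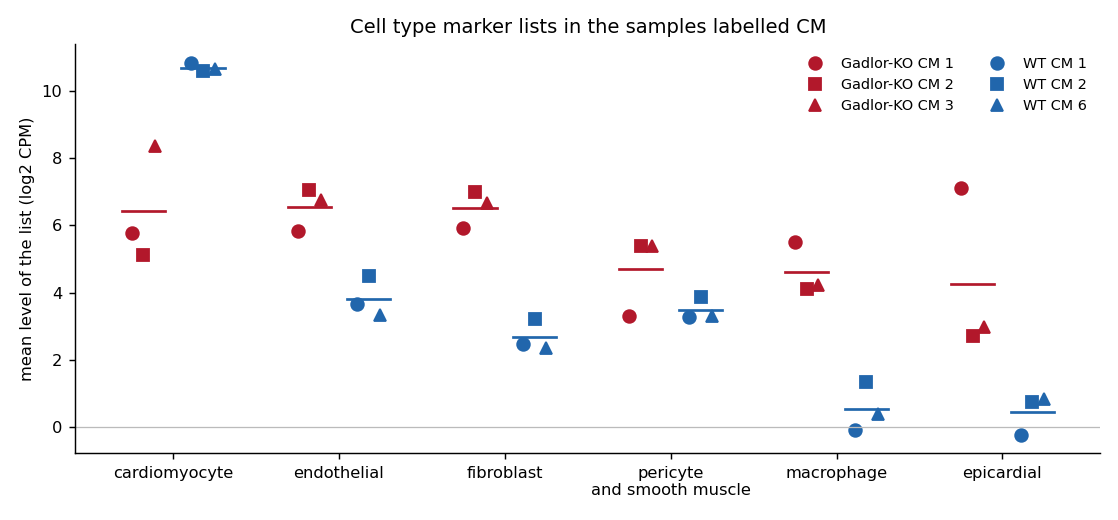
Mean log2 CPM of 6 marker lists in each sample labelled CM, with *Gadlor*-KO in red left of WT in blue and short lines for the group means. CM markers lie at 5.12 to 8.36 in *Gadlor*-KO and at 10.58 to 10.83 in WT samples, whereas endothelial, fibroblast and macrophage markers lie higher in all 3 *Gadlor*-KO samples.

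KO 1 stood apart in further respects. Its epicardial markers lay at 7.11, against 2.70 and 2.97 in KO 2 and KO 3, and between -0.22 and 0.84 in the WT samples. Erythroid genes reached 10.97 in KO 1, against 2.76 and 3.70 in the other *Gadlor*-KO samples and -3.59, -1.60 and 3.17 in WT 1, WT 2 and WT 6. Over all 12923 genes tested, 21.3% rose and 19.6% fell (limma, Benjamini-Hochberg adjusted p under 0.05 over all genes and a fold change above 1.5). Of the 15 endothelial markers 15 rose, of the 14 fibroblast markers 13 rose, and of the 16 macrophage markers 15 rose and 1 fell, while 17 of 17 CM markers fell. Of 11 pericyte and smooth muscle markers 2 rose, of 6 epicardial markers 3, of 5 erythroid genes 0 (median log2 fold change 7.12, and 4 of 5 without WT 6 with a median of 9.35), and of 4 Y-linked genes 0. Of 12 lymphocyte and neutrophil markers 1 was measured and rose, of 6 adipocyte markers 2 were measured and rose, and of 6 Schwann cell markers 0 were measured. In bulk RNA, fewer cells of a type and less RNA per cell cannot be told apart, and the part of the cell mixture in each of the differences given here was not tested. Among the *Gadlor*-KO samples KO 3 had the highest level of CM markers, and the difference between KO 3 and the WT mean is given separately for several groups of genes. Y-linked genes were at or near the lowest value in KO 2 and WT 1 and at 2.64, 2.24 and 3.35 in KO 1, KO 3 and WT 2, and WT 6 lay between these at -0.01.

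The effective library size, read from the steps between low values, was 10.6 to 16.3 M reads in the *Gadlor*-KO and 17 to 20.2 M reads in the WT samples. WT 6 differed from the other WT samples, with a correlation of 0.81 to each of them across genes, against 0.97 between WT 1 and WT 2 (genes are not independent replicates). The difference went with base composition. In the fifth of genes with the lowest GC content of the transcript (up to 44.8%), WT 6 lay at a median of 2.38 below the mean of WT 1 and WT 2 on the log2 scale (-2.38), and in the fifth with the highest (from 56.2%) it lay 0.69 above. In the fifth with the longest transcripts, from 4928 bases, it lay lower, with a median of -1.25. Named genes whose call or direction changed without WT 6 are therefore also given without it where they are described.

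In the *Gadlor*-KO CM samples 2749 genes rose relative to WT and 2535 fell, together 40.9% of those tested. The values of the groups did not overlap in 59.4% of the genes, with *Gadlor*-KO above in 31.1% and below in 28.3%. The median log2 fold change of all genes was 0.15 and the central 50% lay between -0.93 and 1.35. Without KO 2, 1607 genes rose and 1362 fell, without KO 1 and without WT 1 the falls numbered 1763 and 1664, and without WT 6, 3398 rose and 3593 fell. KO 3 alone, with 1 sample against 3 WT samples, an alternative chosen after the marker levels had been seen, gave 0 genes past the adjusted threshold and, at an unadjusted p under 0.05, 1873 rises and 1283 falls; with all 6 samples 50.1% of the genes passed unadjusted. Relative to the nuclear genes alone, 4372 rose and 1487 fell, so 74.6% of the called genes rose, compared with 52.0% on the scale as deposited.

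Named next are genes from the 10 largest falls and the 10 largest rises that passed, without overlap and at 10 CPM or more on average. *Art1*, an ADP-ribosyltransferase of striated muscle, lay at 0.90, 0.83 and 4.23 log2 CPM in KO 1, KO 2 and KO 3, against 6.99, 6.84 and 7.32 in WT 1, WT 2 and WT 6. It fell 33.4-fold (log2 fold change -5.06, SE 0.90, limma adjusted p = 0.00759). *Yipf7* and *Slc38a3*, a glutamine transporter, had log2 fold changes of -5.16 and -5.02, and both passed. Among the rises stood genes of matrix, macrophages and antigen presentation. *Thbs1*, which encodes the matricellular protein thrombospondin-1, lay at 5.17, 5.60 and 4.96 log2 CPM in *Gadlor*-KO, against -0.90, 0.41 and -0.50 in WT samples, a log2 fold change of 5.57 (SE 0.43, limma adjusted p = 0.00455). *Spon2*, a secreted matrix protein, rose by 5.52, the chemokine gene *Ccl6* by 5.47, *Fndc1* by 5.31, *Lyve1* of resident macrophages and lymphatic vessels by 5.31, the macrophage scavenger receptor gene *Cd163* by 5.29 and *Cd74*, the invariant chain of MHC class II, by 5.24.

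Genes of the sarcomere and Z-disc fell almost throughout. Of 34 measured genes 30 fell and 0 rose, with a median log2 fold change of -3.99 (all genes, 0.15). In KO 3 alone the median difference from the WT mean was -2.17. *Myh6*, the main myosin heavy chain of the adult mouse ventricle, lay at 7.33, 6.86 and 10.01 log2 CPM in KO 1, KO 2 and KO 3, against 13.37, 12.90 and 13.07 in WT 1, WT 2 and WT 6. This is a mean of 8.06 ± 1.70 in *Gadlor*-KO and 13.11 ± 0.24 in WT samples (SD, n = 3 each), a log2 fold change of -5.05 (SE 0.89, limma adjusted p = 0.00724). *Actn2*, the actinin that anchors actin at the Z-disc, lay at 5.03, 4.62 and 7.95 in *Gadlor*-KO, against 10.07, 9.96 and 11.05 in WT samples, and fell by 4.49 (SE 0.93, limma adjusted p = 0.0106). *Tnnt2*, cardiac troponin T, which ties troponin to tropomyosin, lay at 6.49, 5.83 and 8.95 against 11.46, 11.26 and 11.51, and fell by 4.32. In all 3 genes KO 3 was the highest *Gadlor*-KO sample and still lay below every WT sample, by 3.11, 2.41 and 2.46 from the WT mean (-3.11, -2.41 and -2.46). *Ttn*, the giant elastic filament, lay at 4.58, 4.63 and 7.56 in *Gadlor*-KO, against 10.54, 10.73 and 6.97 in WT samples, so that WT 6 lay below KO 3. Its log2 fold change was -3.82, and -5.05 without WT 6. *Myh7*, the slow myosin heavy chain that mouse ventricles re-express under overload, fell by 3.71.

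**Figure D2:**
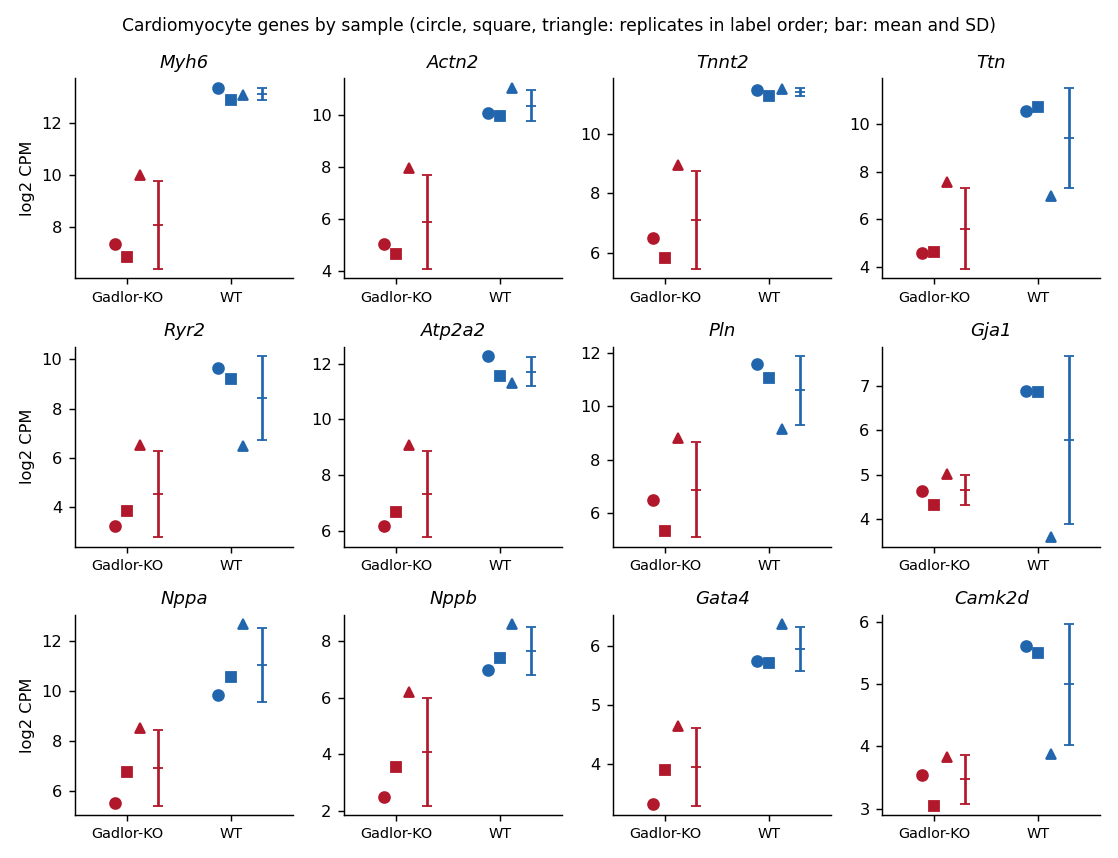
Log2 CPM of 12 CM genes in each sample, *Gadlor*-KO in red left of WT in blue, with the mean and SD (n = 3 each) beside the points; each panel has its own axis. KO 3 (triangle) is the highest *Gadlor*-KO sample for *Myh6* at 10.01, and WT 6 (triangle) lies below the other WT samples for *Ttn* and *Gja1*.

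Promoters of sarcomere genes are printed as examples of known muscle motifs, which most of the list did not hold. The sequences are RefSeq promoters of build GRCm38.p6, 250 bases before to 50 after the start of a gene, written 5′ to 3′ on the strand of the gene with the motif in capitals. The CArG box is the site of serum response factor, and the MEF2 site that of the MEF2 factors of muscle. Of the 28 sarcomere genes with a promoter in the reference, 7 held a CArG box (25%) and 6 a MEF2 site (21.4%), searched on both strands. Of the 9776 measured genes with a promoter 1.54% held a CArG box and 2.42% a MEF2 site, and of all 32851 listed promoters 1.63% and 3.19%. Among the called genes a CArG box stood in 1.71% of those that fell and 1.45% of those that rose. For the MEF2 site these shares were 3.98% and 1.71%. By the letters searched, a CArG box and a MEF2 site cannot overlap. *Myom1*, myomesin of the M-band, fell by 4.05, and *Mybpc3*, myosin-binding protein C, by 4.66. A match is only a description of these letters.
Myom1 (chr17:71019307-71019606, plus strand; CArG box in capitals): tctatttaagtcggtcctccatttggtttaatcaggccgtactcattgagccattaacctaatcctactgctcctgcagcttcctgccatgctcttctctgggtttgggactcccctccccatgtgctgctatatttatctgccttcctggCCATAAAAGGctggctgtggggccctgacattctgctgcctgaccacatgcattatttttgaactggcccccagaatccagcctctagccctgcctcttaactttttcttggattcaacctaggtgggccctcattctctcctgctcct
Mybpc3 (chr2:91117894-91118193, plus strand; MEF2 site in capitals): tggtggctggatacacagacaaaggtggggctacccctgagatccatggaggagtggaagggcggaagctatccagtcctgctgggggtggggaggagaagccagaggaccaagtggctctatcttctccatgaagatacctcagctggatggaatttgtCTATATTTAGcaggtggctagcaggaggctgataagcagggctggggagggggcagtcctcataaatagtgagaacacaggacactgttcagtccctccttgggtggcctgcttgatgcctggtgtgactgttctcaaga

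Genes of calcium handling fell more often than they rose. Of 33 measured genes 15 fell and 5 rose, with a median log2 fold change of -1.97. *Atp2a2*, the SERCA pump, lay at 6.17, 6.69 and 9.07 log2 CPM in KO 1, KO 2 and KO 3, against 12.29, 11.56 and 11.31 in WT 1, WT 2 and WT 6, and fell by 4.41 (SE 0.85, limma adjusted p = 0.00855). *Pln*, phospholamban, the inhibitor of that pump, fell by 3.72, *Hrc*, a calcium-binding protein of the reticulum, by 4.64 and *Cacna1c*, the L-type channel pore, by 3.29. *Ryr2*, the ryanodine receptor, fell by 3.92, but WT 6 (6.50) lay below KO 3 (6.53), and the log2 fold change without WT 6 was -4.89. *Camk2d*, the main CaM kinase II of the heart, lay at 3.54, 3.05 and 3.82 in *Gadlor*-KO, against 5.61, 5.50 and 3.88 in WT samples. Its groups did not overlap, but WT 6 lay next to KO 3, and the log2 fold change of -1.53 (SE 0.52) did not pass (limma adjusted p = 0.0544). Without WT 6 it was -2.09 and passed (limma adjusted p = 0.0049). The highest rise was in *Atp2b4*, a calcium pump of the plasma membrane found in many cell types, with 4.97, 5.70 and 5.34 in *Gadlor*-KO, against 2.36, 2.98 and 1.16 in WT samples (log2 fold change 3.17).

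Ion channel genes fell at 18 of 25 and rose at 2 (median -3.03). Genes of the intercalated disc, the junction between CMs, fell at 6 of 23 and rose at 2 (median -1.70). The 26.1% of disc genes that fell were near the 19.6% of all genes. *Kcnip2*, a subunit of the transient outward potassium channel, lay at 2.61, 1.496 and 4.38 log2 CPM in *Gadlor*-KO, against 6.78, 6.42 and 7.38 in WT samples, and fell by 4.03. *Kcnj2*, the inward rectifier, had a log2 fold change of -1.45 that did not pass, with WT 6 at -0.22 and therefore below every *Gadlor*-KO sample, and without WT 6 it was -2.82 and passed (limma adjusted p = 0.0143). *Pkp2*, plakophilin of the desmosome, fell by 4.16. *Gja1*, connexin 43 of CM gap junctions, lay at 4.63, 4.32 and 5.02 in *Gadlor*-KO, against 6.89, 6.87 and 3.58 in WT samples. *Dsp*, desmoplakin, lay at 4.80, 3.88 and 6.54 against 9.40, 9.05 and 5.86. For both, WT 6 lay far below WT 1 and WT 2, and neither passed (log2 fold changes -1.12 and -3.03), while without WT 6 the values were -2.22 and -4.15 and 14 of the 23 disc genes fell. *Gja5*, connexin 40, which ECs of arteries and atrial CMs carry, rose by 2.41.

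Of 19 cardiac transcription factors 11 fell and 0 rose (median -2.00). *Nkx2-5*, a homeobox factor of the CM lineage, lay at 1.95, 0.83 and 4.27 log2 CPM in *Gadlor*-KO, against 6.22, 5.93 and 6.67 in WT samples, and fell by 3.92. *Gata4*, a zinc-finger factor of cardiac growth that FBs and other cells also express, lay at 3.33, 3.90 and 4.64 against 5.73, 5.71 and 6.36, with a log2 fold change of -1.98 (SE 0.41, limma adjusted p = 0.0102). The fall of *Gata4* was smaller than that of the CM markers (median -4.32). Among 31 genes of hypertrophy and the fetal program 9 fell and 4 rose, with a median of -0.14, close to that of all genes. These are 29% and 12.9%, against 19.6% and 21.3% of all genes. *Nppa*, atrial natriuretic peptide, lay at 5.51, 6.76 and 8.53 in *Gadlor*-KO, against 9.85, 10.54 and 12.67 in WT samples, and fell by 4.08 (SE 1.03, limma adjusted p = 0.0200). *Nppb*, brain natriuretic peptide, lay at 2.50, 3.56 and 6.20 against 6.97, 7.40 and 8.61, and fell by 3.57, a call that was lost without WT 6 (-3.10, limma adjusted p = 0.0529). In both genes every *Gadlor*-KO sample lay below every WT sample. *Rcan1*, a target and inhibitor of calcineurin, fell by 2.43, whereas *Nfatc4*, a factor that calcineurin activates, rose by 2.54.

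**Figure D3:**
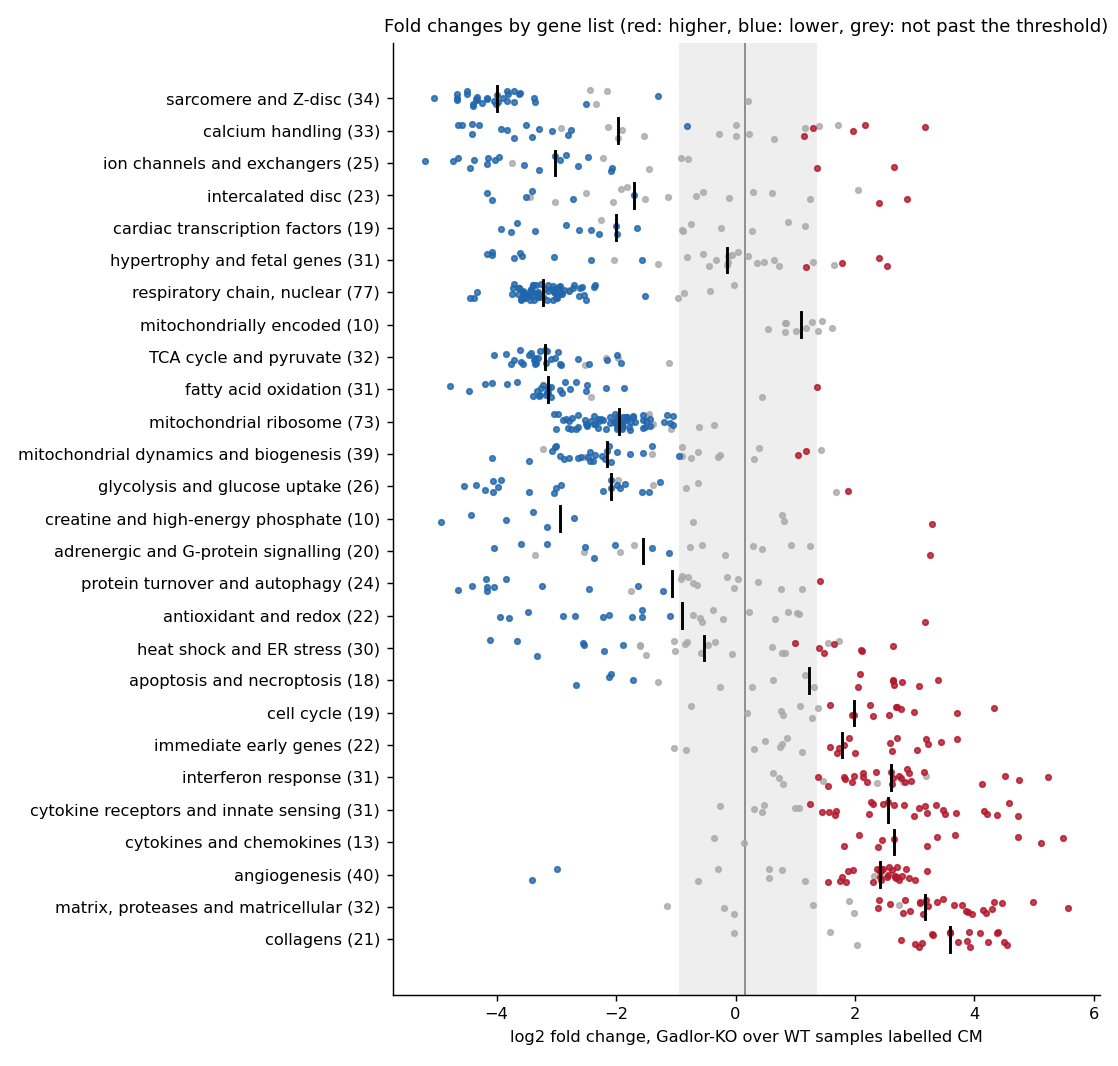
Log2 fold changes of the members of 27 gene lists, measured members in brackets, with genes past the threshold in red (higher) or blue (lower), list medians as black bars, and the median and central 50% of all genes as a grey line and band (-0.93 to 1.35). Lists of contraction and oxidative metabolism lie at the low end and lists of matrix, vessels and inflammation at the high end.

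Nuclear genes of the respiratory chain fell almost throughout, and the listed genes of the mitochondrial genome did not pass the test. Of 77 nuclear genes of the respiratory chain 72 fell and 0 rose, with a median log2 fold change of -3.23. *Sdha*, the flavoprotein of complex II, lay at 4.97, 4.71 and 6.06 log2 CPM in KO 1, KO 2 and KO 3, against 8.76, 7.95 and 7.97 in WT 1, WT 2 and WT 6, and fell by 2.98 (SE 0.48, limma adjusted p = 0.00639). *Atp5a1*, a subunit of ATP synthase, fell by 3.60. *Ndufs1*, the largest core subunit of complex I, had a log2 fold change of -2.79 that did not pass (limma adjusted p = 0.0528), and without WT 6 it was -3.83 and passed (limma adjusted p = 0.00608). For KO 3 alone the median difference of the 77 genes from the WT mean was -2.09. Of 15 listed genes of the mitochondrial genome 10 were measured, and of these 0 passed by limma, with a median of 1.09. Of the 10, 8 were higher in every *Gadlor*-KO than in every WT sample, as were 31.1% of all genes. The list does not cover all 21 measured genes of that genome. *mt-Co1*, a core subunit of complex IV, lay at 16.83, 16.26 and 17.12 in *Gadlor*-KO, against 15.93, 15.60 and 14.34 in WT samples (log2 fold change 1.45, limma adjusted p = 0.129). *mt-Cytb*, of complex III, had a log2 fold change of 1.28, *mt-Nd1* 1.01 and *mt-Nd5* 1.61, both of complex I. The libraries were strand-specific, but whether the counting used strand is not given in the sources used here, so reads of *mt-Nd5* and of the gene that overlaps it on the other strand may not be separated.

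With 1 transcript per gene, all 21 measured mitochondrially encoded genes together held 75.9%, 65.4% and 72.4% of the CPM in KO 1, KO 2 and KO 3, against 47.1%, 47.1% and 27.2% in WT 1, WT 2 and WT 6. The groups did not overlap, with a difference of 30.8 percentage points (two-sided exact permutation test, p = 0.1, the smallest that 3 against 3 samples allow). Over all transcripts the share was 62.5%, 49.1% and 56.8% in KO 1, KO 2 and KO 3, against 30.0%, 30.0% and 15.5% in WT 1, WT 2 and WT 6. In the separately normalized tables, with 1 transcript per gene, the share was 8.11% to 20.6% in *Gadlor*-KO and 5.31% to 8.69% in WT ECs, and 46.6% to 61.1% in *Gadlor*-KO and 3.85% to 73.8% in WT FBs.

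The levels were also set against the CM markers of the same sample. The mean of the respiratory chain list minus that of the 17 CM markers was -2.28, -1.82 and -3.36 on the log2 scale in KO 1, KO 2 and KO 3, against -3.84, -3.88 and -3.30 in WT 1, WT 2 and WT 6. KO 1 and KO 2 lay above the WT range. KO 3 lay within it only through WT 6 and was above WT 1 and WT 2. For the sarcomere list these differences were -0.93, -0.92 and -1.43 against -1.81, -1.60 and -1.57, and for fatty acid oxidation -2.44, -1.93 and -3.45 against -3.89, -4.05 and -3.92. In both of these lists every *Gadlor*-KO sample, KO 3 included, lay above every WT sample. The 10 listed mitochondrially encoded genes lay 8.51, 8.47 and 5.93 above the CM markers in *Gadlor*-KO, against 2.36, 2.55 and 1.91 in WT samples. On that scale 87.3% of all genes rose and 0.0% fell by limma (0 fell also at an unadjusted p under 0.05). These shares follow largely from the scale itself. It moved the median log2 fold change of all genes from 0.15 to 4.42, and the lowest of any gene had been -5.20.

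**Figure D4:**
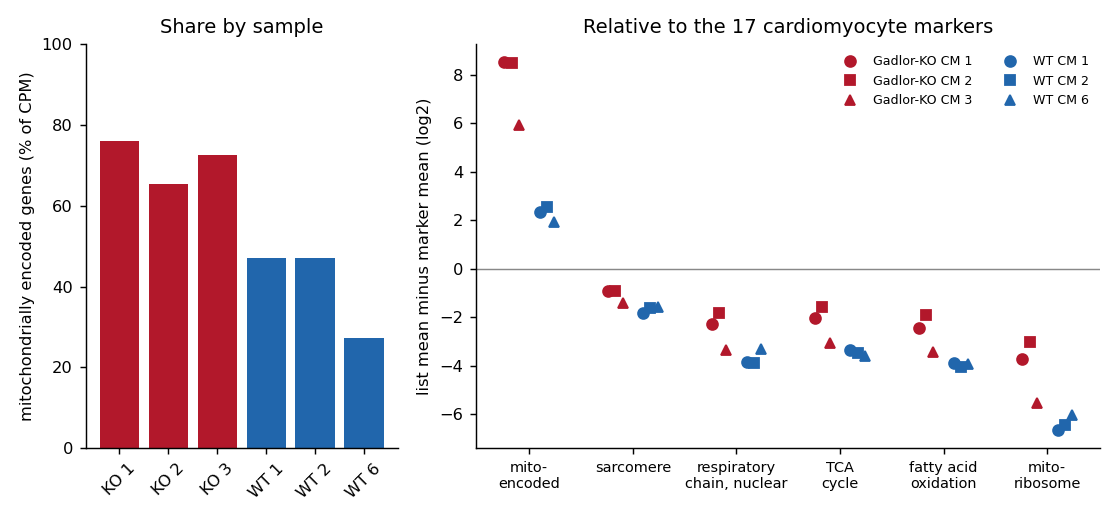
Left, percent of CPM in mitochondrially encoded genes by sample, 65.4% to 75.9% in the *Gadlor*-KO (red) and 27.2% to 47.1% in the WT samples (blue). Right, mean of each gene list minus the mean of the 17 CM markers in the same sample (log2). KO 3 (red triangle) lies at -3.36 for the nuclear respiratory chain, inside the WT range only through WT 6 (-3.30). For the other lists shown it lies above the WT range.

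The promoter of *Sdha* is printed as an example of the NRF1 site, GCGCANGCGC, bound by nuclear respiratory factor 1 at many genes of the respiratory chain. Both strands were searched. The motif stood in 17 of 64 promoters of the nuclear respiratory chain list (26.6%) and in 13 of 64 of the mitochondrial ribosome list (20.3%), compared with 11.2% of the measured genes and 4.60% of all promoters in the table. Among the called genes 11.5% of those that fell and 4.61% of those that rose held it. The *Sdha* promoter holds it 3 times, beginning 98, 55 and 10 bases before the start.
Sdha (chr13:74350191-74350490, minus strand; NRF1 sites in capitals): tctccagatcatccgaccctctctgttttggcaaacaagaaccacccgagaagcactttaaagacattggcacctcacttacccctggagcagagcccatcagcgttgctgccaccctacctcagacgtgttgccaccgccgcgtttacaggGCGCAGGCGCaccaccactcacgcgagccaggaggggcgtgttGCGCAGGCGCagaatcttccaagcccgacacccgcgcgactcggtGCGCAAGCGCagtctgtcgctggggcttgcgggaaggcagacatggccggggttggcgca

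Enzymes of oxidative metabolism fell with the respiratory chain. Of 32 genes of the TCA cycle and pyruvate oxidation 28 fell and 0 rose (median -3.19). *Cs*, citrate synthase, lay at 5.58, 5.37 and 7.29 log2 CPM in *Gadlor*-KO, against 9.45, 9.03 and 9.86 in WT samples, and fell by 3.36. *Ogdh*, the oxoglutarate dehydrogenase, fell by 3.59, and *Pdha1*, of pyruvate dehydrogenase, by 2.65. Of 31 genes of fatty acid oxidation 28 fell and 1 rose (median -3.14). *Cpt1b*, the muscle form of the enzyme that commits fatty acids to mitochondria, lay at 2.30, 2.60 and 5.85 in *Gadlor*-KO, against 8.21, 7.99 and 8.89 in WT samples, and fell by 4.78 (SE 0.94, limma adjusted p = 0.00933). The 1 gene that rose was *Cpt1a*, the form found in liver and many other cells, with 4.88, 5.44 and 4.998 against 3.75, 3.58 and 3.90 (log2 fold change 1.36, limma adjusted p = 0.0100). It is named outside the rule, after its values were seen. *Acsl1*, which activates fatty acids, fell by 4.08 and *Acadm*, a dehydrogenase of beta-oxidation, by 2.85. *Cd36*, a fatty acid transporter of CMs, ECs and macrophages, lay at 6.90, 8.17 and 7.97 against 8.42, 8.12 and 5.14. Its log2 fold change of 0.45 did not pass and was -0.60 without WT 6.

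Of 39 genes of mitochondrial dynamics and biogenesis 25 fell and 2 rose (median -2.16), and of 73 genes of the mitochondrial ribosome 66 fell and 0 rose (median -1.94). *Mfn2*, which fuses outer mitochondrial membranes, lay at 4.49, 4.65 and 6.38 log2 CPM in *Gadlor*-KO, against 8.51, 8.19 and 9.18 in WT samples, and fell by 3.45 (SE 0.60, limma adjusted p = 0.00707). *Esrra*, a nuclear receptor of oxidative metabolism, fell by 2.80. *Ppargc1a*, the coactivator PGC-1α, lay at 0.41, 0.78 and 3.78 against 6.49, 5.68 and 2.47, and *Opa1*, of inner membrane fusion, at 3.76, 3.50 and 4.27 against 6.35, 6.22 and 3.17. Neither passed (log2 fold changes -3.22 and -1.41), with WT 6 below KO 3 in both, and both passed without WT 6 (-4.43 and -2.44).

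Genes of glycolysis and glucose uptake fell at 20 of 26 and rose at 1 (median -2.09). *Slc2a4*, the insulin-dependent transporter GLUT4 of muscle and fat, lay at 1.32, 3.23 and 5.39 log2 CPM in *Gadlor*-KO, against 7.71, 7.40 and 8.47 in WT samples, and fell by 4.55, whereas *Slc2a1*, the transporter GLUT1 of most cells, had a log2 fold change of -0.83 that did not pass. *Ldhb*, the heart form of lactate dehydrogenase, fell by 4.06 and *Pkm*, pyruvate kinase of muscle and other tissues, by 2.09. The creatine kinases of the cytosol, *Ckm*, and of mitochondria, *Ckmt2*, fell by 4.43 and 4.93, and of 10 genes of the list 6 fell and 1 rose.

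In adrenergic and G-protein signalling 8 of 20 genes fell and 1 rose (median -1.55). *Adrb1*, the main beta-adrenergic receptor of CMs, lay at 0.59, -0.70 and 0.90 log2 CPM in *Gadlor*-KO, against 3.49, 3.31 and 3.47 in WT samples, and fell by 3.16 (SE 0.48, limma adjusted p = 0.00597). Of 24 genes of protein turnover 11 fell and 1 rose (median -1.06). *Trim63*, the muscle ubiquitin ligase MuRF1, fell by 4.16, while *Fbxo32*, atrogin-1, had a log2 fold change of -1.76 that did not pass, with WT 6 at 2.95, within the *Gadlor*-KO range of 2.67 to 4.08, and without WT 6 it was -2.80 and passed (limma adjusted p = 0.00678).

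Of 30 genes of heat shock and ER stress 7 rose and 7 fell (median -0.52), which is 23.3% in each direction and close to the 21.3% and 19.6% of all genes. *Hspa5*, the main chaperone of the ER, *Hspa1a*, an inducible heat shock protein, and *Ddit3*, a factor of the ER stress response, had log2 fold changes of 0.61, -0.47 and -0.82, and none of these 3 passed. Without WT 6, *Ddit3* was -0.90 and passed (limma adjusted p = 0.0178), and *Hspa1a* was 0.12. Of 22 antioxidant genes 11 fell and 1 rose (median -0.90). The 1 that rose was *Hmox1*, heme oxygenase, an enzyme that macrophages use to break down heme, with 3.72, 4.03 and 3.98 log2 CPM in *Gadlor*-KO, against 0.50, 0.63 and 1.10 in WT samples (log2 fold change 3.16, SE 0.33, limma adjusted p = 0.00455). *Sod2*, the superoxide dismutase of mitochondria, fell by 3.47. *Nfe2l2*, the factor NRF2, was higher in all 3 *Gadlor*-KO samples by a log2 fold change of 0.87 that did not pass.

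Collagens and other matrix genes rose. Of 21 collagens 18 rose and 0 fell, with a median log2 fold change of 3.60. *Col1a1*, a chain of fibrillar collagen I, lay at 8.41, 8.77 and 8.72 log2 CPM in KO 1, KO 2 and KO 3, against 3.03, 4.16 and 5.07 in WT 1, WT 2 and WT 6, and rose by 4.55 (SE 0.54, limma adjusted p = 0.00499). *Col3a1*, collagen III, rose by 4.37. *Col14a1*, a collagen on fibril surfaces, lay at 4.49, 5.44 and 4.84 against 0.31, 1.19 and 0.58, and rose by 4.23 (SE 0.39, limma adjusted p = 0.00455). *Col15a1*, a basement membrane collagen, lay at 6.41, 9.17 and 8.48 against 4.06, 5.52 and 5.47, and rose by 3.001. *Col4a1*, of the basement membrane, was higher in each *Gadlor*-KO sample, and its log2 fold change of 2.03 did not pass (limma adjusted p = 0.0536); it is named outside the rule, after its values were seen. KO 3 had its collagens at a median of 3.89 above the WT mean.

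Of 32 genes of other matrix proteins, proteases and matricellular proteins 25 rose and 0 fell (median 3.16). *Fn1*, fibronectin, lay at 10.26, 8.11 and 7.90 log2 CPM in *Gadlor*-KO, against 3.94, 4.81 and 5.10 in WT samples, and rose by 4.14. *Postn*, periostin, a product of activated FBs, lay at 4.88, 7.97 and 7.85 against 2.68, 4.81 and 0.32, and rose by 4.29 (SE 1.29, limma adjusted p = 0.0362). Without WT 6 its log2 fold change of 3.15 did not pass (limma adjusted p = 0.0608). *Timp1*, an inhibitor of matrix proteases, rose by 2.41. *Adam8*, a surface protease of leukocytes, lay at 3.40, 0.62 and 1.58 against -1.48, -1.39 and -0.31, and rose by 2.93. The fibroblast markers *Dcn*, decorin, and *Pdgfra*, a PDGF receptor, rose by 5.02 and 4.37, alongside the matrix genes.

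Most genes of angiogenesis rose, as did the endothelial markers. Of 40 genes 31 rose and 2 fell (median 2.43). *Pecam1*, an adhesion protein of ECs, lay at 6.78, 8.15 and 7.92 log2 CPM in *Gadlor*-KO, against 4.77, 5.53 and 5.27 in WT samples, and rose by 2.43 (SE 0.46, limma adjusted p = 0.00831). *Cdh5*, the cadherin of endothelial junctions, rose by 2.47. *Angpt2*, a ligand that ECs make, rose by 2.91. The 2 genes that fell encode VEGF ligands that CMs make. *Vegfa* lay at 3.91, 3.75 and 5.64 in *Gadlor*-KO, against 7.66, 7.89 and 6.70 in WT samples, and fell by 2.99 (SE 0.60, limma adjusted p = 0.0100), and *Vegfb* lay at 4.28, 3.40 and 6.02 against 7.71, 7.54 and 8.67, and fell by 3.41. Of the mural cell genes *Rgs5* and *Pdgfrb*, the first was higher in every *Gadlor*-KO sample and neither passed (log2 fold changes 2.99 and 1.77).

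Genes of inflammation rose. Of 13 measured cytokine and chemokine genes 11 rose and 0 fell (median 2.65), of 31 genes of cytokine receptors and innate sensing 25 rose and 0 fell (median 2.55), and of 31 genes of the interferon response and antigen presentation 24 rose and 0 fell (median 2.60). In KO 3 alone the medians of these 3 lists were 2.46, 2.62 and 2.17 above the WT mean, while its macrophage markers lay at a median of 4.06 above it. *Ccl6* lay at 7.17, 4.17 and 4.28 log2 CPM in *Gadlor*-KO, against -2.06, 0.58 and 0.68 in WT samples, and *Cd74* at 7.04, 5.91 and 6.84 against 0.82, 1.52 and 1.74. *Il6ra*, the receptor of interleukin 6, rose by 4.38. *Tlr9*, an endosomal sensor of DNA, had 49 reads over the *Gadlor*-KO and 6 over the WT samples, with 0.31, 0.37 and 0.66 against -3.97, -1.61 and -3.14, where -3.97 is the value of 0 reads. It rose by 3.35 (SE 0.70, limma adjusted p = 0.0105). *Tlr4*, the sensor of bacterial lipopolysaccharide, had a log2 fold change of 0.45 that did not pass and was -0.46 without WT 6. *Irf7*, a factor induced by interferon, rose by 1.83. The macrophage genes *Csf1r* and *Cd68* rose by 3.63 and 4.20. *Cx3cr1* was the 1 macrophage marker that fell, by 2.37, and its direction depended on the transcript, since the median over its transcripts was higher in *Gadlor*-KO by 0.51. *Il6*, *Il1b* and *Ccl2* were not analysed here.

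The promoter of *Isg15*, a ubiquitin-like product of interferon signalling that rose by 1.94, is printed for the interferon-stimulated response element, GAAANNGAAA, searched on both strands. Of 24 promoters of the interferon list 10 held it (41.7%), compared with 3.61% of the measured genes and 3.44% of all promoters. In *Isg15*, named outside the rule after its values were seen, 3 matches overlap one another from 78 bases before the start.
Isg15 (chr4:156200769-156201068, minus strand; ISRE in capitals): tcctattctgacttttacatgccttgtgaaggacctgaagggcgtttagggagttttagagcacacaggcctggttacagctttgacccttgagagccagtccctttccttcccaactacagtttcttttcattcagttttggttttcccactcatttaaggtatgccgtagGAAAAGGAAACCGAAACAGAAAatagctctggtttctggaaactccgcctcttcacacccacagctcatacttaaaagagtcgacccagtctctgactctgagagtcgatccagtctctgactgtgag

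Immediate early genes, the first to be transcribed after a stimulus, rose at 14 of 22 and fell at 0 (median 1.78). *Fos*, of the AP-1 complex, lay at 5.52, 3.04 and 3.55 log2 CPM in *Gadlor*-KO, against 0.31, 0.58 and 0.88 in WT samples, and rose by 3.45, and *Egr1*, a zinc-finger factor, rose by 2.70. *Atf3*, a stress-induced factor, had a log2 fold change of -0.82 that did not pass. Of 19 cell cycle genes 12 rose and 0 fell (median 1.98). *Mki67*, a protein of dividing cells, had 331 reads in *Gadlor*-KO and 63 in WT samples, with 3.62, 2.90 and 2.82 against -1.07, 1.52 and -2.24, and rose by 3.71. *Cdk1*, the kinase of mitotic entry, rose by 2.58, on 89 and 22 reads. Of 18 genes of apoptosis and necroptosis 8 rose and 4 fell (median 1.24). These are 44.4% and 22.2%, against 21.3% and 19.6% of all genes. *Ripk3*, a kinase of necroptosis, rose by 2.65.

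For 8 genes that the study had examined by RT-qPCR in CMs, the genotype difference in CM samples was set against that in ECs, which come from other samples. The interaction of genotype and cell type passed in limma for 8 of 8 genes, and for 52.3% of the 12330 genes in both tables, so the share among the 8 is read against that background. They had been picked by the study with these libraries in hand. The interaction fit takes 1 variance per gene for both cell types. The SE of the difference can therefore lie below that in CM samples alone, as for *Camk2d* (0.48 against 0.52, and 0.07 in ECs). *Camk2d* had not passed in CM samples alone (limma adjusted p = 0.0544). The interaction p-values may thus understate the spread of the CM samples. *Tlr9* rose by 3.35 in CM samples and had a log2 fold change of -2.35 in ECs that did not pass (limma adjusted p = 0.0700), a difference of 5.70 (SE 1.17). *Adam8* rose by 2.93 in CM samples and fell by 1.25 in ECs (limma adjusted p = 0.0143). *Col14a1* and *Col15a1* had log2 fold changes of -0.34 and 0.10 in ECs, and *Actn2*, *Mfn2*, *Gata4* and *Camk2d* had 0.13, -0.10, 0.18 and 0.04, and none of these 6 passed in ECs. In FBs 0 of the 8 genes passed by limma, and their log2 fold changes lay between -1.18 for *Tlr9* and 1.89 for *Actn2*. The WT FB samples differed widely among themselves, with an SD of 2.53 for *Actn2*. A difference between CMs and FBs was not tested.

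**Figure D5:**
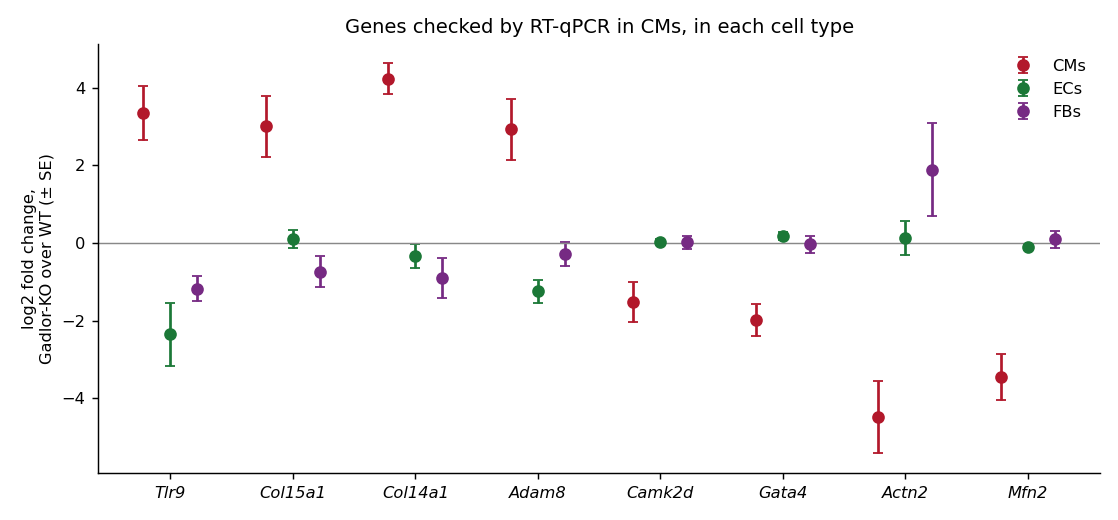
Genotype difference (log2, *Gadlor*-KO minus WT, ± SE) of 8 genes in CMs (red), ECs (green) and FBs (purple), each from the table of its cell type. CM values run from -4.49 (*Actn2*) to 4.23 (*Col14a1*), whereas those of ECs run from -2.35 (*Tlr9*) to 0.18 (*Gata4*).

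In ECs 2.1% of the genes rose in the *Gadlor*-KO samples and 5.25% fell, and in FBs 1 gene rose (0.00744%) and 0 fell by limma. The WT FB samples differed widely among themselves, with means of the CM marker list at 4.78, 0.23 and 1.30 log2 CPM. The low count in FBs therefore does not show that a genotype difference is absent there. Of all 12330 genes in both tables, 2682 were higher and 2162 lower in CM samples. Over all genes tested in CM samples the shares were 21.3% and 19.6%. Of 230 genes higher in ECs and present in both tables, 95 were also higher in CM samples (41.3% of the EC genes and 3.54% of the 2682 CM genes) and 34 were lower. Of 516 genes lower in ECs, 180 were higher in CM samples (34.9%) and 63 lower (12.2%).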

How the data were processed

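The comparison used the 6 samples labelled CM, grouped by the genotype in the labels. The authors aligned reads to mm10 with bowtie2 and deposited log2 CPM per transcript. For the test their methods name edgeR and the submitters' processing notes DESeq2, without versions. Deposited columns of fold change, likelihood ratio, p-value and FDR were not used. The CM table holds 25362 transcripts, of which 264 had no symbol and were left out. Each of 12923 genes was represented by the transcript with the highest mean, and reads shared between gene copies are of unknown assignment.

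Genotypes were compared with limma 3.58.1 (mean-variance trend, robust empirical Bayes, statmod 1.5.0, R 4.3.3) with Benjamini-Hochberg adjustment over all genes. Genes were called at an adjusted p under 0.05 and a fold change above 1.5. Fold changes are on the deposited log2 scale, which understates those of low genes. The fit was tested on simulated data. Low values were whole multiples of 1 read within 0.1 read in 100% of those up to 200 reads, and voom was run on these reads as an alternative. Figures were made in matplotlib 3.10.9 and all other steps in python 3.11.15 (scipy 1.17.1, numpy 2.4.6, pandas 2.3.3).

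The members and 40 gene lists were chosen with earlier results of these data known. Named are the CM markers of the rule, genes the study examined by RT-qPCR in CMs, hallmark genes of each list, the 10 largest rises and 10 largest falls among called genes with groups apart and a mean of at least 10 CPM (without predicted genes), and, per list, at most 4 members of lowest adjusted p; not all are printed. Alternatives comprised thresholds, pseudocounts, scalings, transcript choice, single samples left out, a replicate block and a Y-linked covariate. Some results that the rule names are not reported here.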

Additional observations from a re-analysis of the deposited data

Results flagged for a closer look

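The difference between genotypes in CM samples departed from that in ECs, by the interaction term in limma adjusted over all genes in both tables, for each of 8 genes. The study had picked these 8 genes with these libraries in hand. On the log2 scale the effect in CM samples minus that in ECs was 5.70 for *Tlr9*, 2.91 for *Col15a1*, 4.57 for *Col14a1*, 4.18 for *Adam8*, -1.56 for *Camk2d*, -2.15 for *Gata4*, -4.62 for *Actn2* and -3.35 for *Mfn2*. The adjusted p from limma was largest for *Camk2d* (0.0156) and smallest for *Col14a1* (2.52e-05). Of all 12330 genes tested this way 52.3% passed. CM markers were lower in the *Gadlor*-KO than in the WT CM samples, and the part of that difference in these values was not tested.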

How the results depend on the processing

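Counts of 2749 higher and 2535 lower genes became 4372 and 1487 relative to nuclear genes, 11279 and 0 relative to the CM markers (unadjusted p under 0.05, 11386 and 0), and 0 and 0 with KO 3 as the only *Gadlor*-KO sample (unadjusted, 1873 and 1283; chosen after the data had been seen). That last setting assumes that the lone sample varies like the WT samples. The counts relative to the CM markers follow largely from the shift of all genes on that scale. Leaving out 1 sample gave 1607 to 3398 higher and 1362 to 3593 lower genes, a difference in the share of CPM in mitochondrially encoded genes of 24.1 to 34.1 percentage points and 8 of 8 genes past the interaction test. With a replicate block 3162 genes were higher and 3541 lower. Only numbers 1 and 2 are shared, and their deviations correlated at 0.05 and 0.08, so the numbers were not taken as pairs. Other settings (pseudocounts, filter, thresholds, transcript choice, median centring, Y-linked covariate, voom) kept the counts within 1.5 times.

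Relative to the CM markers, 42 of 102 named genes changed sign, with log2 fold changes of 0.11 for *Trim63*, 0.11 for *Pkp2*, 0.18 for *Nppa*, 0.19 for *Acsl1*, 0.21 for *Ldhb*, 0.22 for *Myom1*, 0.24 for *Kcnip2*, 0.34 for *Nkx2-5*, 0.35 for *Ryr2*, 0.44 for *Ttn*, 0.55 for *Pln*, 0.55 for *Myh7*, 0.67 for *Atp5a1*, 0.67 for *Ogdh*, 0.69 for *Nppb*, 0.80 for *Sod2*, 0.81 for *Mfn2*, 0.86 for *Vegfb*, 0.90 for *Cs*, 0.97 for *Cacna1c*, 1.04 for *Ppargc1a*, 1.10 for *Adrb1*, 1.24 for *Dsp*, 1.28 for *Vegfa*, 1.29 for *Sdha*, 1.42 for *Acadm*, 1.47 for *Esrra*, 1.48 for *Ndufs1*, 1.62 for *Pdha1*, 1.84 for *Rcan1*, 1.90 for *Cx3cr1*, 2.17 for *Pkm*, 2.29 for *Gata4*, 2.51 for *Fbxo32*, 2.74 for *Camk2d*, 2.82 for *Kcnj2*, 2.86 for *Opa1*, 3.14 for *Gja1*, 3.43 for *Slc2a1*, 3.44 for *Atf3*, 3.45 for *Ddit3* and 3.80 for *Hspa1a*. *Hspa1a* turned to 0.26 relative to nuclear genes, to 0.26 without KO 2 and to 0.12 without WT 6 (down to -1.03 without KO 1), *Cx3cr1* to 0.51 as the median over transcripts, *Tlr4* to -0.52 with the replicate block and to -0.46 without WT 6 (up to 0.91 without others), and *Cd36* to -0.74 with the block and -0.60 without WT 6. Of the genes that changed sign relative to the CM markers, *Pln*, *Ttn* and *Myom1* are themselves among the 17 markers. A gene that falls less than the marker mean, whether a marker or not, turns positive on that scale by construction. Several of the values on that scale lay within their SE, as for *Acsl1* (SE 1.08) and *Cs* (SE 1.04). Others passed, as for *Gja1* (limma adjusted p = 0.00617). The causes were not tested. With KO 3 alone 79 of the 102 genes lost their call, and without WT 6, 9 gained and 2 lost it. Depth limits *Tlr9* and *Adam8*, at 6 and 26 reads over the WT samples. It also limits other rises, such as *Il6ra* (20 reads over the WT samples), *Cdk1* (22), *Angpt2* (27) and *Cd163* (28).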
